A study of Mus musculus with 5 samples.

Results

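The genes described here are 10 Dusp, Sprouty and Spred genes, negative regulators of the ERK pathway or, for Dusp10, of related kinases. These genes are the rows named Dusp1, Dusp2, Dusp4, Dusp5, Dusp6, Dusp10, Spry1, Spry2, Spred1 and Spred2 among the 35976 genes of each count table. They were measured by bulk RNA-seq in mature CD8 single-positive thymocytes of mice, the CD8-lineage T cells that are about to leave the thymus, purified by flow cytometry. The Runx3 +/WRPW genotype, with 1 allele named WRPW and 1 wild-type allele of the transcription factor gene Runx3, had 3 libraries, and the Runx3 +/+ genotype, with wild-type alleles, had 2. The labels give no age, sex, strain or treatment, do not describe how the WRPW allele was made, and leave unsaid whether libraries of a genotype are different animals. The p-values therefore cover only variation among the libraries at hand, some of which may be technical.

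As background, a T cell receptor signal activates Ras, and Ras activates the kinases Raf, MEK and ERK in turn. ERK enters the nucleus and induces early-response genes, among them the genes of its own inhibitors. The dual-specificity phosphatases (DUSPs) remove the activating phosphates from ERK or from the related kinases JNK and p38, while Sprouty and Spred proteins act further up, at the step of Ras and Raf. In the thymus, the strength and duration of ERK signalling bear on positive selection and on the choice between the CD4 and CD8 lineages.

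In Runx3 +/WRPW cells, Dusp4, Dusp5 and Spred1 fell, by 9.20-fold, 2.38-fold and 2.27-fold, and none of the other members passed the test. Of the 10 members, 9 passed the low-count filter of edgeR, and 3 were lower and 0 higher at an adjusted p under 0.05 in edgeR's quasi-likelihood test, where 7.33% of all 13666 tested genes were lower, 6.24% were higher and 13.6% were called in either direction. At an unadjusted p under 0.05, 5 members were lower and 0 higher, and DESeq2 and limma-voom also called 0 higher. Of all 13666 tested genes, 2085 were lower and 1992 higher at that unadjusted threshold. The median log2 fold change of the 9 tested members was -0.58, against 0.02 over all genes tested. In 5 of the 9 every Runx3 +/WRPW library lay below every Runx3 +/+ library, and in 0 above, while 24.2% of all tested genes separated downward and 24.1% upward (48.3% in either direction). All 3 calls were lost without Runx3 +/+ library 2, with the other Runx3 +/+ library assumed to vary like the other genotype; the log2 fold changes were then -3.10 for Dusp4, -1.02 for Dusp5 and -1.10 for Spred1, with edgeR adjusted p = 0.0568, 0.102 and 0.0617 in that order. In that fit 4 members were lower and 1 higher at an unadjusted p under 0.05.

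Library totals ran from 15715242 to 43758550 counts, so that 3 counts correspond to between 0.0686 and 0.191 CPM (counts scaled to the library total). Runx3 +/WRPW library 2 stood apart, with reads at 27414 genes where the other libraries had reads at 17237 to 18967, and 7350 genes had a count in that library and in no other. The T cell markers Cd3e, Cd3d, Cd8a, Cd8b1, Cd5 and Cd2 summed to between 4782 and 5373 CPM in Runx3 +/WRPW libraries, against 5588 and 5681 CPM in Runx3 +/+ libraries. Runx3 itself was at 394, 337 and 422 CPM in Runx3 +/WRPW libraries, against 273 and 357 CPM in Runx3 +/+ libraries, and its count does not show which allele was present.

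Promoter sequence was matched by symbol for 9 of the 10 members, from RefSeq on GRCm38.p6, the assembly that mm10 names. None was available for Dusp4, so its promoter was not examined. The 250 bases before the annotated start are shown for Dusp5 and Spred1, which fell, and for Dusp1, an inducible phosphatase gene that did not pass the test. Each is written 5′ to 3′ along the gene, and capitals mark the letters that matched a searched motif, read on both strands.
Dusp5, chr19:53528895-53529144, plus strand: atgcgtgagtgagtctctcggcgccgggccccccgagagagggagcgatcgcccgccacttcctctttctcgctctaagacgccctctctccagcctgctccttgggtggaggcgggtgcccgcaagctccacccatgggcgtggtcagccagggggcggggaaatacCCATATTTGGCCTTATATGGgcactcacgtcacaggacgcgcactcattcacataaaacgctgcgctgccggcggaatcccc
Spred1, chr2:117120821-117121070, plus strand: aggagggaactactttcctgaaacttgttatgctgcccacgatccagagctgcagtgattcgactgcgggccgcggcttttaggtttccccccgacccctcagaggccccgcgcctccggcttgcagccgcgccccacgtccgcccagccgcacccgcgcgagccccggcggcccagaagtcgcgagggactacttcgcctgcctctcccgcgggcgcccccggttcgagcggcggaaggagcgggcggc
Dusp1, chr17:26508473-26508722, minus strand: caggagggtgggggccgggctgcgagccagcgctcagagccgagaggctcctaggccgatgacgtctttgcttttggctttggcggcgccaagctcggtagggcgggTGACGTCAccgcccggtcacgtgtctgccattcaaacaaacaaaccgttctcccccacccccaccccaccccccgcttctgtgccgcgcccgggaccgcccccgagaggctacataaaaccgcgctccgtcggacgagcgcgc
The Dusp5 window held a pair of adjoining CArG boxes, CCATATTTGG and CCTTATATGG, at bases -82 to -73 and -72 to -63 from the start. The CArG box is the sequence bound by serum response factor, a factor that acts with ERK-phosphorylated partners, and 1.40% of 27025 promoters of the same length held at least 1. The Dusp1 window held the cAMP response element TGACGTCA at bases -143 to -136, which was present in 1.62% of promoters. The Spred1 window held none of the searched motifs. A stretch just after its annotated start was not found in a GENCODE M21 transcript of Spred1, unlike for Dusp5 and Dusp1, so the place of this window is less certain. No Runx motif (TGTGGT or TGCGGT, in 18.7% of promoters), AP-1 motif (TGANTCA, 6.87%) or ETS motif (CCGGAA, 12.2%) lay in the 9 members' windows. Dusp4 was not among these members. A match or its absence describes these letters and not the binding of a factor. These windows were rich in G and C, at 56.0% to 70.8%, against a median of 52.0% over all promoters.

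Dusp4 (chromosome 8, 34807610 to 34819894, mm10) encodes an inducible nuclear phosphatase that acts on ERK. It was at 1.58, 0.984 and 1.20 CPM in Runx3 +/WRPW libraries 1, 2 and 3, against 10.8 and 12.9 CPM in Runx3 +/+ libraries 1 and 2. The Runx3 +/WRPW values lay close together and far below both Runx3 +/+ values, with no overlap. They rested on 69, 16 and 26 reads in Runx3 +/WRPW, against 232 and 323 reads in Runx3 +/+. The log2 fold change was -3.20 ± 0.24 (SE; edgeR adjusted p = 0.00155), with a 95% interval of -3.78 to -2.62. In bulk RNA, fewer cells with the transcript and less transcript per cell cannot be told apart. Across the 5 fits that left out 1 library the change was -3.43 to -3.07.

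Dusp5 (chromosome 19, 53529145 to 53541809), whose CArG boxes are shown above, encodes a nuclear phosphatase specific for ERK that also holds it in the nucleus. Its level was 5.41, 6.65 and 6.34 CPM in the Runx3 +/WRPW libraries, against 12.4 and 16.7 CPM in the Runx3 +/+ libraries. The genotypes did not overlap, and the Runx3 +/+ libraries differed from each other more than the Runx3 +/WRPW libraries did. The log2 fold change was -1.25 ± 0.18 (SE; edgeR adjusted p = 0.00963). An annotated antisense transcript covers 22.1% of the exon bases of Dusp5, and since the strand setting of the counting is not given in the sources used here, its reads cannot be told apart from those of Dusp5.

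The other inducible nuclear phosphatases did not pass. Dusp1, which acts on p38 and JNK as well as ERK and is induced by stress, was at 42.6, 53.3 and 49.1 CPM in Runx3 +/WRPW, against 35.1 and 45.4 CPM in Runx3 +/+. The genotypes overlapped, with a log2 difference of 0.26 ± 0.15 (SE; edgeR adjusted p = 0.285) and a 95% interval of -0.09 to 0.62. Dusp2, known as an early gene of activated T cells, was at 298, 325 and 189 CPM in Runx3 +/WRPW, against 208 and 210 CPM in Runx3 +/+. Runx3 +/WRPW library 3 was the lowest of all 5 and the other Runx3 +/WRPW libraries the highest. The log2 difference of Dusp2 was 0.38 ± 0.23 (SE; edgeR adjusted p = 0.322), and without Runx3 +/WRPW library 3 it was 0.59 and passed (adjusted p = 0.0238). The 95% intervals of Dusp1 and Dusp2 lay entirely above those of Dusp4 and Dusp5; the differences between genes were not tested.

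**Figure D1:**
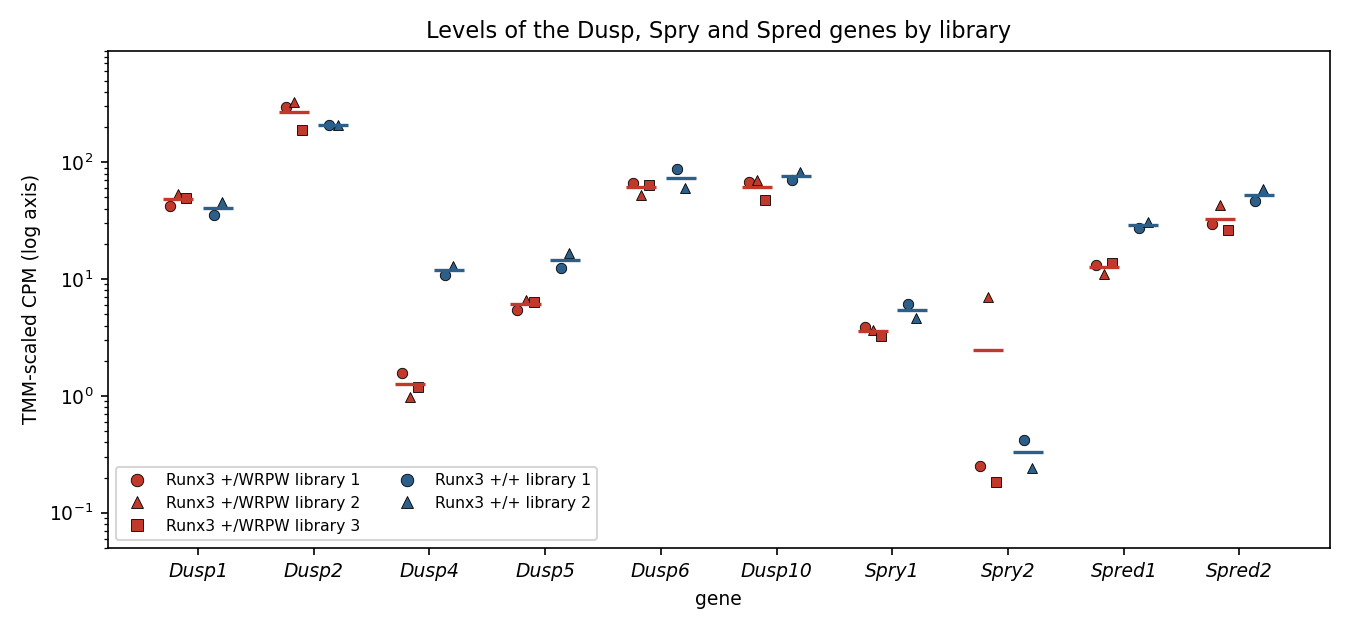
TMM-scaled CPM (log axis) of the 10 genes in each library, with Runx3 +/WRPW in red and Runx3 +/+ in blue; symbols give the library number and bars the mean of a genotype. Dusp4 sits between 0.984 and 1.58 CPM in Runx3 +/WRPW, against 10.8 and 12.9 CPM in Runx3 +/+, and Spry2 is raised in Runx3 +/WRPW library 2, at 6.95 CPM.

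Dusp6 encodes the cytoplasmic phosphatase that is most selective for ERK. Its level was 66.5, 52.4 and 64.4 CPM in Runx3 +/WRPW, against 87.3 and 59.9 CPM in Runx3 +/+. The Runx3 +/+ values lay on both sides of the upper Runx3 +/WRPW values. The log2 difference of -0.26 ± 0.18 (SE; edgeR adjusted p = 0.381) had a 95% interval of -0.69 to 0.17, and it was 0.00073 without Runx3 +/+ library 1. Dusp7, a related cytoplasmic ERK phosphatase outside the 10 members, was at 10.2, 10.9 and 9.52 CPM in Runx3 +/WRPW, against 21.7 and 24.5 CPM in Runx3 +/+. It fell by 1.17 on the log2 scale (edgeR adjusted p = 0.00331) and passed in 13 of 13 alternatives, among them all 5 that left out a library. In a list of 8 further Dusp, Sprouty and Spred genes, 5 were tested, with Dusp7 the 1 lower and 0 higher. At an unadjusted p under 0.05, 0 were higher; DESeq2 called 1 higher and limma-voom 0.

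Dusp10, which acts on JNK and p38 rather than ERK, was at 67.9, 70.8 and 47.3 CPM in Runx3 +/WRPW, against 70.3 and 82.8 CPM in Runx3 +/+. Runx3 +/WRPW library 2 lay just above Runx3 +/+ library 1, so the genotypes overlapped. The log2 difference was -0.30 ± 0.18 (SE; edgeR adjusted p = 0.335). Dusp16, another phosphatase of JNK, also overlapped, at 2.38, 3.08 and 2.30 CPM in Runx3 +/WRPW, against 2.29 and 6.63 CPM in Runx3 +/+.

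Spred1 (chromosome 2, 117121071 to 117182279) encodes a membrane protein that brings the Ras inactivator neurofibromin to the plasma membrane. It was at 13.2, 11.1 and 13.7 CPM in Runx3 +/WRPW, against 27.3 and 30.6 CPM in Runx3 +/+. The libraries of each genotype lay close together and the genotypes did not overlap. The log2 fold change was -1.18 ± 0.12 (SE; edgeR adjusted p = 0.00374). Spred2, its close relative, was at 29.6, 42.8 and 26.4 CPM in Runx3 +/WRPW, against 46.6 and 58.7 CPM in Runx3 +/+. The genotypes of Spred2 did not overlap either, but Runx3 +/WRPW library 2 came near Runx3 +/+ library 1. Its log2 difference of -0.68 ± 0.22 (SE) missed the threshold (edgeR adjusted p = 0.0969), and without Runx3 +/WRPW library 2 it was -0.91 and passed (adjusted p = 0.021).

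Spry1, a Sprouty gene that restrains receptor-driven Ras signalling, was at 3.88, 3.63 and 3.26 CPM in Runx3 +/WRPW, against 6.11 and 4.67 CPM in Runx3 +/+. The genotypes did not overlap, and the gap was smaller than the spread between the Runx3 +/+ libraries. With a log2 difference of -0.58 ± 0.22 (SE), Spry1 missed the threshold (edgeR adjusted p = 0.148), and a transcript model on the opposite strand covers 24.4% of its exon bases. Spry2 was below the low-count filter, with 11, 113 and 4 reads in Runx3 +/WRPW libraries, against 9 and 6 reads in Runx3 +/+ libraries. Its level of 6.95 CPM in Runx3 +/WRPW library 2, the library that stood apart, compares with 0.184 to 0.420 CPM in the other 4 libraries, so no genotype difference is given for it.

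**Figure D2:**
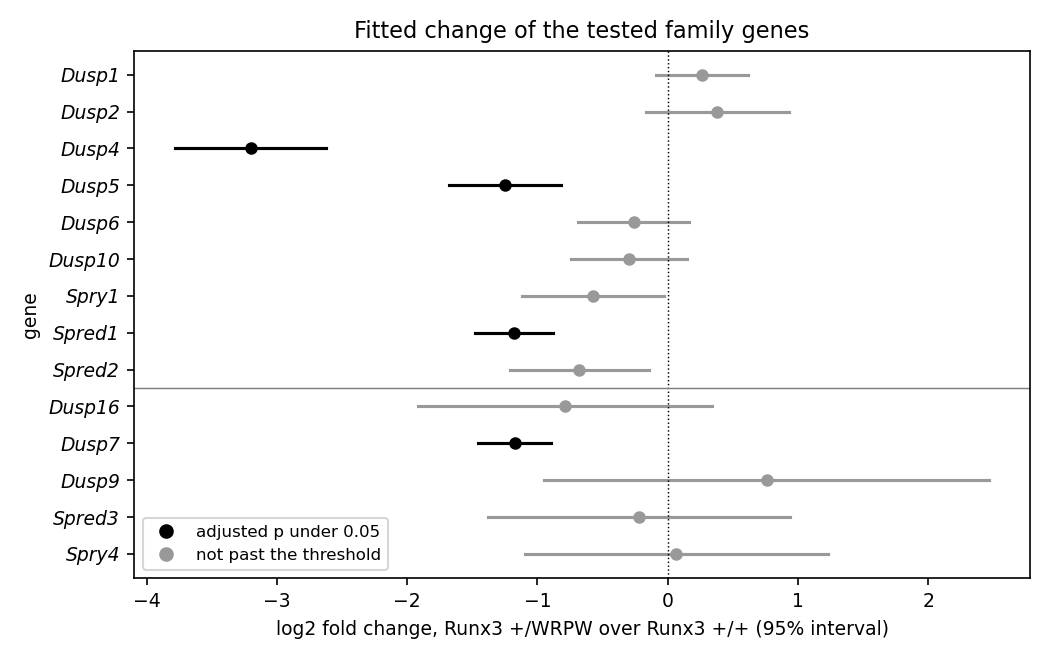
Log2 fold change of Runx3 +/WRPW over Runx3 +/+ with its 95% interval, for the 9 tested members above the line and 5 related genes below it; black marks an edgeR adjusted p under 0.05. Dusp4 at -3.20 lies apart from Dusp5, Spred1 and Dusp7 at -1.25, -1.18 and -1.17, and the intervals of Dusp1, Dusp2, Dusp6 and Dusp10 cover 0.

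Per kilobase of exon, the order of the levels was led in both genotypes by Dusp2, at 135 ± 35.9 CPM per kilobase in Runx3 +/WRPW (SD, n = 3) and 104 ± 0.774 in Runx3 +/+ (SD, n = 2). Dusp10, Dusp6 and Dusp1 followed, at 20.4, 19.5 and 14.6 CPM per kilobase in Runx3 +/WRPW, against 25.2, 23.5 and 12.2 in Runx3 +/+. Dusp10 and Dusp6 did not differ beyond their spread. Spred2 came 5 and Dusp5 came 6 in the order of both genotypes. Dusp4 had the lowest mean in Runx3 +/WRPW, at 0.457 ± 0.109 CPM per kilobase, and stood just after Dusp5 in Runx3 +/+, at 4.33 ± 0.535, where it did not differ from Spred1 at 4.27 ± 0.343 beyond their spread. In Runx3 +/WRPW, Spred1 at 1.87 and Spry1 at 1.24 CPM per kilobase came between Dusp5 and Dusp4, and the mean of Spry2 at 1.18 rested on library 2. Among 12374 tested genes with a length, Dusp4 stood at percentile 11.2 of the per-length level in Runx3 +/WRPW and at percentile 39.3 in Runx3 +/+.

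Ratios within a library do not depend on the scaling between libraries. There were 2.37, 1.88 and 1.86 Dusp4 reads for each 100 Dusp6 reads in Runx3 +/WRPW libraries, against 12.4 and 21.5 in Runx3 +/+ libraries. For Dusp5 the ratio was 8.14, 12.7 and 9.86 reads for each 100 of Dusp6 in Runx3 +/WRPW, against 14.2 and 27.9 in Runx3 +/+. The genotypes were separate in both ratios, narrowly for Dusp5. Spred1 reads for each 100 Spred2 reads numbered 44.8, 25.9 and 52.1 in Runx3 +/WRPW, against 58.6 and 52.1 in Runx3 +/+, so that Runx3 +/WRPW library 3 came level with Runx3 +/+ library 2. Of the summed per-length level of the 6 Dusp members, Dusp2 made up 71.5%, 73.3% and 63.6% in Runx3 +/WRPW libraries, against 59.5% and 59.4% in Runx3 +/+ libraries. That sum itself was 208, 221 and 148 CPM per kilobase in Runx3 +/WRPW, against 174 and 176 in Runx3 +/+, and overlapped.

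**Figure D3:**
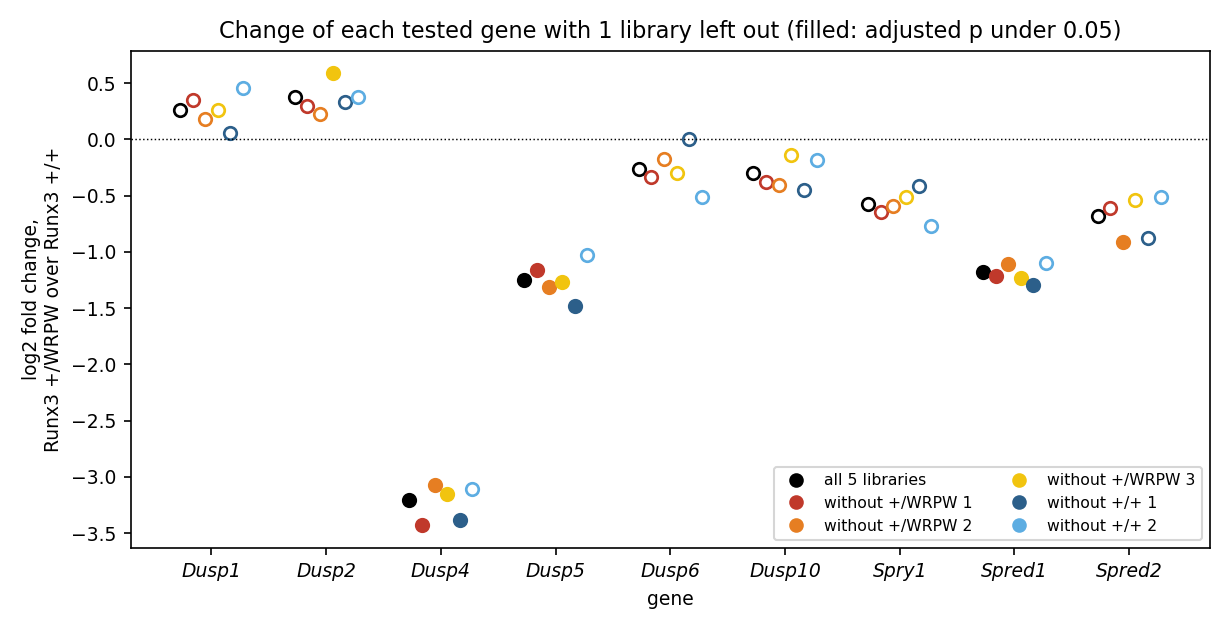
Log2 fold change of Runx3 +/WRPW over Runx3 +/+ for each tested gene, with all 5 libraries (black) and with each library left out in turn (colours); filled circles mark an edgeR adjusted p under 0.05. Dusp4, Dusp5 and Spred1 stay negative in each fit and lose the call without Runx3 +/+ library 2, and Dusp6 is at 0.00073 without Runx3 +/+ library 1.

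Further genes of the pathway were described from lists. Their unadjusted counts stand beside 2085 lower and 1992 higher of all 13666 tested genes at that threshold. Of 16 genes that link the receptor to Ras, 4 were lower and 0 higher, with a median log2 fold change of -0.13. At an unadjusted p under 0.05, 6 were lower and 1 higher, and DESeq2 and limma-voom called 0 higher. Rasgrp2, which encodes an exchange factor best known for the small GTPase Rap1, was at 178, 210 and 184 CPM in Runx3 +/WRPW, against 446 and 594 CPM in Runx3 +/+ (log2 fold change -1.44, edgeR adjusted p = 0.00322). Rasgrp1, the main exchange factor for Ras in thymocytes, changed by -0.30, the adaptor gene Lat by -0.37 and the receptor chain gene Cd247 by -0.36 on the log2 scale. These small changes were sensitive to single libraries: the count of lower genes was 1 when Runx3 +/+ library 1 or 2 or Runx3 +/WRPW library 1 was left out, and 2 when Runx3 +/WRPW library 2 or 3 was.

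Most genes of the kinase cascade did not pass the test. Of 16 genes of Ras, Raf, MEK, ERK and their scaffolds, 1 was higher and 0 lower, and at an unadjusted p under 0.05, 3 were higher and 3 lower; DESeq2 called 2 lower and limma-voom 1. The gene that rose was Rras2, a Ras relative, at 170, 165 and 184 CPM in Runx3 +/WRPW, against 119 and 101 CPM in Runx3 +/+ (edgeR adjusted p = 0.00953). It lost its call when Runx3 +/+ library 1 or 2 was left out. Mapk3, which encodes ERK1, had a log2 difference of 0.06 (adjusted p = 0.657). Of 13 tested genes of the JNK and p38 cascades, 1 was lower and 0 higher. At an unadjusted p under 0.05, 4 were lower and 3 higher; DESeq2 called 3 lower and limma-voom 1, and both called 0 higher. The lower gene was Mapk11, which encodes p38 beta, at 5.44, 4.61 and 4.69 CPM in Runx3 +/WRPW, against 18.8 and 42.7 CPM in Runx3 +/+ (log2 fold change -2.63, edgeR adjusted p = 0.00701). The Runx3 +/+ libraries differed widely, and leaving out Runx3 +/+ library 1 or 2 gave a log2 fold change of -3.14 or -1.93; Mapk11 passed in 13 of 13 alternatives.

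Among 17 other brakes on Ras and ERK, 5 genes were lower and 1 higher, with a median log2 fold change of -0.09. At an unadjusted p under 0.05, 7 were lower and 4 higher; DESeq2 called 7 lower and 3 higher, limma-voom 5 and 1, and upper-quartile factors gave 5 and 2. Rasa3, a Ras and Rap inactivator, was at 136, 148 and 107 CPM in Runx3 +/WRPW, against 384 and 513 CPM in Runx3 +/+ (log2 fold change -1.78, edgeR adjusted p = 0.00331). Dok2, an adaptor that recruits a Ras inactivator, changed by -0.73, Dgka, a kinase that removes diacylglycerol, by -0.63 and Rasa2, another Ras inactivator, by -0.61 on the log2 scale. Rasa2 was at 95.9, 93.8 and 96.1 CPM in Runx3 +/WRPW, against 148 and 143 CPM in Runx3 +/+, with little spread within either genotype. Ptpn7, a tyrosine phosphatase of ERK, was also lower, at -0.36, and Ptpn6, which encodes SHP-1, was the higher one, at 0.33. Without Runx3 +/+ library 2, 3 of these genes were lower and 0 higher, and the call of Ptpn6 was lost whichever of the 5 libraries was left out, while Rasa3, Dok2 and Rasa2 passed in 13 of 13 alternatives.

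The list of genes induced downstream of ERK also held Srf, which encodes serum response factor, and its partner genes Elk1, Elk3 and Elk4. Their log2 differences were 0.02, -0.02, -0.06 and 0.10 in that order. Of the 17 tested genes of the list, 5 were lower and 0 higher. The median log2 fold change of -0.02 was the value of Elk1, so it does not describe ERK-induced genes alone. At an unadjusted p under 0.05, 6 were lower and 1 higher; DESeq2 called 1 higher and limma-voom 0. Fosl2, an AP-1 subunit gene, was at 2.83, 4.31 and 3.82 CPM in Runx3 +/WRPW, against 14.2 and 30.9 CPM in Runx3 +/+ (log2 fold change -2.65, edgeR adjusted p = 0.00805), and without Runx3 +/+ library 2 its log2 fold change was -1.97 and did not pass (adjusted p = 0.0672). Egr1, a target of serum response factor, was at 156, 111 and 127 CPM in Runx3 +/WRPW, against 243 and 273 CPM in Runx3 +/+ (edgeR adjusted p = 0.0104). Log2 fold changes were -1.33 for the nuclear receptor gene Nr4a1, -0.68 for Egr2 and -0.55 for the activation marker gene Cd69. Fos itself, at 28.1, 26.0 and 26.8 CPM in Runx3 +/WRPW, against 23.3 and 30.2 CPM in Runx3 +/+, overlapped between the genotypes. Leaving out Runx3 +/+ library 1 gave 2 lower genes, Runx3 +/+ library 2 gave 1 and Runx3 +/WRPW library 3 gave 3. Nr4a1 passed in 13 of 13 alternatives, Fosl2 in 12, Egr1 in 10, Egr2 in 9 and Cd69 in 5. In a list of 15 atypical Dusp genes, with the related Styx and Styxl1 among them, 8 were tested and 0 passed in edgeR. At an unadjusted p under 0.05, 1 was lower and 1 higher, and DESeq2 called 1 lower and limma-voom 0. The most abundant of them, Dusp11, an RNA phosphatase gene, was at 348, 320 and 378 CPM in Runx3 +/WRPW, against 404 and 422 CPM in Runx3 +/+.

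**Figure D4:**
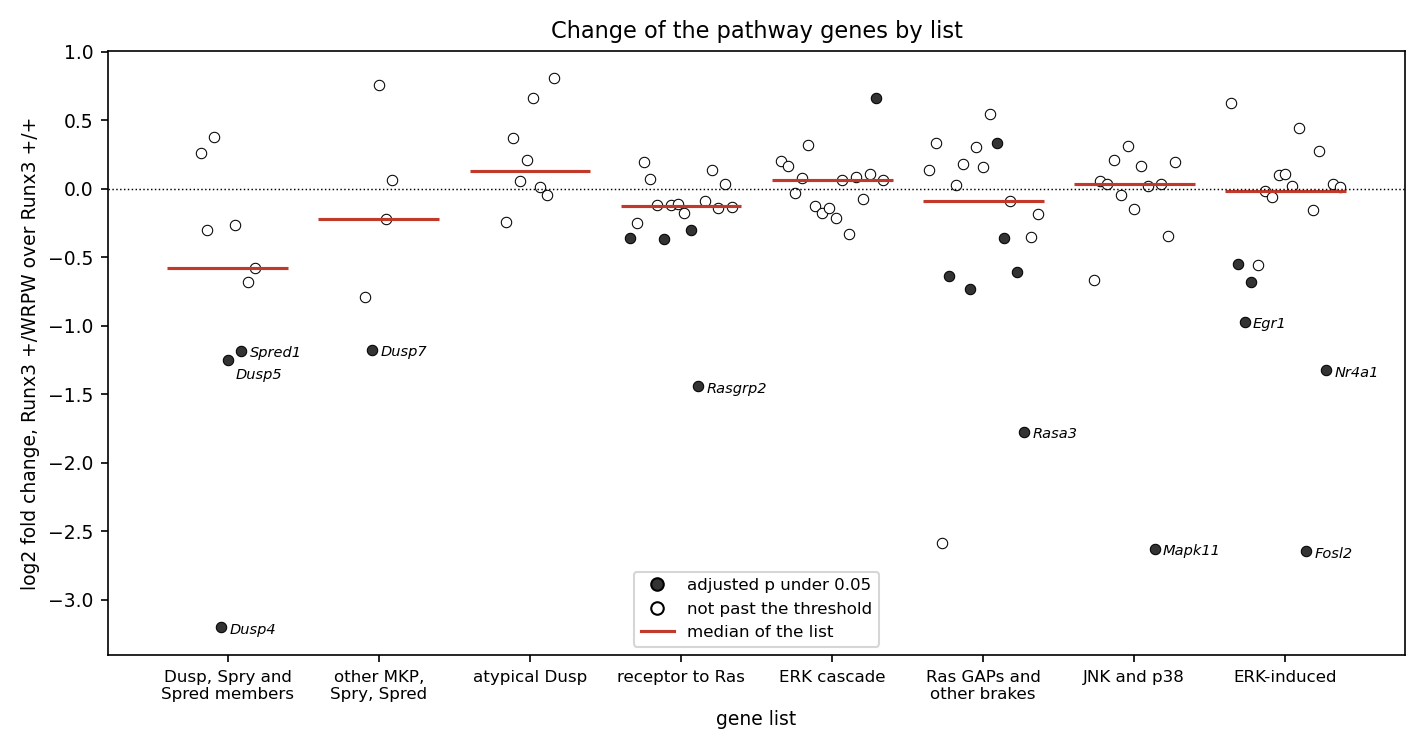
Log2 fold change of Runx3 +/WRPW over Runx3 +/+ for each tested gene of 8 lists; filled circles mark an edgeR adjusted p under 0.05 and red bars the median of a list. The 9 tested members have a median of -0.58, and the 16 genes of the ERK cascade one of 0.06 with Rras2 as the filled circle.

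The genes whose pattern over the 5 libraries was most like that of Dusp4 were Tesc, Kif18b and Trp53i11. The root-mean-square difference of their centred log2 CPM from that of Dusp4 was 0.13, 0.17 and 0.23, the smallest among 10048 genes searched. Their log2 fold changes were -3.01, -3.05 and -3.09, and such a search over 5 libraries favours genes of similar fold change. Kif18b, 1 of these 3 genes, encodes a kinesin of the mitotic spindle. Markers of dividing cells were lower as well, with Mki67 at 30.3, 31.7 and 33.0 CPM in Runx3 +/WRPW, against 244 and 254 CPM in Runx3 +/+, and Top2a at 33.5, 32.2 and 36.1 CPM, against 222 and 245 CPM. Some sums of markers of other cell types were lower in Runx3 +/WRPW too, while single markers within these lists differed in direction. The 5 natural killer cell markers, of which 1 of 2 tested was lower, summed to between 1.83 and 4.98 CPM in Runx3 +/WRPW, against 15.2 and 25.2 CPM in Runx3 +/+. Most of the Runx3 +/+ sums came from Klrd1, at 13.7 and 23.8 CPM, while Klrb1c, Klre1 and Tyrobp overlapped between the genotypes. Ncr1 had no reads in Runx3 +/+ and a few in each Runx3 +/WRPW library. The 7 double-positive thymocyte markers, of which 1 of 5 tested was lower, summed to between 14.4 and 16.3 CPM in Runx3 +/WRPW, against 32.8 and 35.0 CPM in Runx3 +/+. Of those tested, 4 had a negative log2 fold change and 1, Rag1, a positive one (0.55, edgeR adjusted p = 0.639). The called gene was Dntt (log2 fold change -1.84, edgeR adjusted p = 0.028). The 5 markers of CD4 or regulatory T cells, of which 1 of 4 tested was lower, summed to between 5.20 and 8.52 CPM in Runx3 +/WRPW, against 10.0 and 19.9 CPM in Runx3 +/+. Here 3 of those tested had a negative log2 fold change and 1, Il2ra, a positive one (0.39, edgeR adjusted p = 0.377). Foxp3 was the called gene (log2 fold change -3.21, edgeR adjusted p = 0.0123). The 6 markers of endothelium or fibroblasts, of which 1 of 4 tested was lower, summed to between 78.4 and 101 CPM in Runx3 +/WRPW, against 147 and 186 CPM in Runx3 +/+, nearly all of it from Pecam1. The 6 B cell markers, of which 1 of 2 tested (Cd79b) was lower, summed to between 3.17 and 12.4 CPM in Runx3 +/WRPW, against 9.76 and 9.79 CPM in Runx3 +/+, and overlapped. The myeloid, erythroid and thymic epithelial sums overlapped as well. None of the markers in the first 5 of these lists was at 0 in all libraries, and the part of dividing cells or of other cell types in the changes of Dusp4, Dusp5 and Spred1 was not tested.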

How the data were processed

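The authors deposited unnormalized counts per gene, 1 table for each library. The submitters' processing notes name HISAT2 2.2.1 as well as cutadapt 4.0, edgeR 3.36.0 and also featureCounts 2.0.8, with mm10; settings, annotation and strand: not given in the sources used here. Genotypes came from the labels. The header of the table of Runx3 +/+ library 2 carries another number than its label. That of Runx3 +/WRPW library 2 is a generic aligner name, so the sample records were followed for both. No pair of libraries of the same genotype agreed within sampling noise, with a chi-square per gene of 15.3 or more. All genes were fitted in R 4.3.3 by edgeR 4.0.16 (TMM factors 0.981 to 1.03, filterByExpr at a minimum of 10 counts, glmQLFit, then glmQLFTest), with Benjamini-Hochberg adjustment over 13666 genes and a threshold of 0.05. Standard errors were taken as the size of the log2 fold change over the square root of F. The pipeline was tested on simulated data. Levels are CPM on TMM-scaled totals, divided by merged GENCODE M21 exon length where genes are compared. Floors of 3 counts reflect counting error alone, because without molecular identifiers several reads can stem from 1 molecule. Alternatives were DESeq2 1.42.0, limma-voom 3.58.1, factors by RLE or upper quartile, other filters, robust dispersion, a replicate block and leaving out each library. The members and lists were chosen with earlier results of these data known. Named genes are the members, up to 4 called genes per list with the smallest p-values and up to 2 uncalled ones where none passed. Ptpn7, Ptpn6, Cd69, Mapk3, Fos, Dusp16, Runx3, Mki67 and Top2a were named after their values were seen. So were Btg2, Dusp3, Dusp18, the heat-shock genes, single markers of other cell types and genes named to describe the make-up of a list. Likeness was searched for the called member with the smallest p among genes averaging at least 1 in log2 CPM, predicted models left out, with a prior count of 2.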

Additional observations from a re-analysis of the deposited data

How the results depend on the processing

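Over 13 alternatives, Dusp4, Dusp5 and Spred1 were each called in 12, and lost the call without Runx3 +/+ library 2. With 1 library left out, the count of members lower ran from 0 to 4 and of members higher from 0 to 1. Over all genes those fits gave 106 to 585 higher and 171 to 846 lower, against 853 and 1002 with all libraries. DESeq2 called 1675 higher and 1766 lower, and without a low-count filter 442 were higher and 637 lower among 28583 genes tested. The replicate block gave 327 higher and 427 lower genes and 1 member higher (Dusp2, log2 fold change 0.58, edgeR adjusted p = 0.0358), with 3 members lower. The labels share numbers across genotypes without saying that they pair libraries, and the deviations of same-numbered libraries correlated at -0.05 and 0.00244 across genes. Dusp6 ranged from -0.51 to 0.00073 with 1 library left out, reversed without Runx3 +/+ library 1, and Spred2 passed with limma-voom (log2 fold change -0.75, adjusted p = 0.0489). RLE and upper-quartile factors moved the median of all genes to 0.02 and 0.05 and changed no call of a member. Spry2 was left out by the low-count filter, and entered the fits without that filter, with DESeq2 and with 1 Runx3 +/+ library, in which it was not called.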

Other observations

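Immediate-early and stress genes, among which Dusp1 is often counted because it rises when tissue is dissociated, were also described from a list. Of 14 tested, 1 was higher and 4 lower, where 6.24% of all tested genes were higher and 7.33% lower. This list shares Egr1, Fos, Fosb, Ier2 and Ier3 with the ERK-induced list, and Egr1 is 1 of the 4 lower genes. Junb was at 298, 268 and 277 CPM in Runx3 +/WRPW, against 157 and 162 CPM in Runx3 +/+ (log2 fold change 0.82, edgeR adjusted p = 0.00222). Its relative Jund was at 238, 226 and 229 CPM in Runx3 +/WRPW, against 359 and 501 CPM in Runx3 +/+ (edgeR adjusted p = 0.0121). Socs3, an inhibitor of cytokine signalling, changed by -2.02 and the antiproliferative gene Btg2 by -0.74 on the log2 scale. The calls of Junb and Socs3 were lost without either Runx3 +/+ library, that of Jund without Runx3 +/+ library 2, and that of Btg2 without Runx3 +/+ library 2 or Runx3 +/WRPW library 1 or 3. The heat-shock gene Hspa8 overlapped between the genotypes, at 431, 428 and 540 CPM in Runx3 +/WRPW, against 377 and 558 CPM in Runx3 +/+. Hspa1a, Hspa1b and Hsp90aa1 overlapped as well and were not called, with log2 differences of 2.10, 1.19 and -0.24.

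Beside Spry2, further family genes had reads mainly in Runx3 +/WRPW library 2. Dusp3 was at 3.94 CPM in that library and at 0 to 0.206 CPM in the other 4. Dusp18 was at 3.51 CPM there, against 0 to 0.0685 CPM in the other 4. Both were below the low-count filter.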
